A study of Danio rerio with 9 samples.

Results

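Genes of the major histocompatibility complex (MHC) and of antigen presentation were described in zebrafish ventricles. They were chosen by name, as the rows of the deposited count table whose gene name was *mhc1uba*, *mhc1uka*, *mhc2a*, *mhc2dab*, *b2m*, *cd74a*, *cd74b*, *tap1*, *psmb8a* or *psmb9a*. All 10 were among the 30628 genes of the table, and all 10 passed the filter on low counts with 21216 genes in total. RNA was sequenced from dissected ventricles of 6-month-old fish of 3 genotypes, with 5 ventricles pooled for each library and 3 libraries per genotype, 9 in all. *Tg(cmlc2:tfeb)* fish express *tfeb*, a transcription factor of lysosome and autophagy genes, from a cardiomyocyte promoter. *mtor xu015/+* fish are heterozygous mutants of *mtor*, which encodes the kinase of the mTOR pathway. A single group of WT siblings served both lines, so all comparisons with WT share their controls, and the labels do not say to which line these siblings belong. In the deposited table the WT columns are tagged as 9 months, which differs from the age of 6 months stated for the study. The study asked how raised *tfeb* and reduced *mtor* change the cardiac transcriptome.

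MHC class I molecules display peptides from proteins made inside the cell to T cells. The peptides are cut by the proteasome, whose inducible catalytic subunits form the immunoproteasome, are pumped into the endoplasmic reticulum by the TAP transporter, and are loaded with the help of tapasin onto a heavy chain that is held by beta-2-microglobulin. MHC class II molecules, an alpha and a beta chain guided by the invariant chain (CD74), display peptides from the endolysosome on antigen-presenting cells. In zebrafish the U lineage class I genes *mhc1uba* and *mhc1uka* lie with *psmb8a*, *psmb9a* and *tap2a* on chromosome 19, the class I genes of other lineages and the class II genes lie elsewhere, and the chromosome 19 region is known for haplotypes that differ in the genes they carry.

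Normalised counts are the deposited values, treated as estimated counts, rounded and scaled to the library size. Whether the deposited values are corrected for gene length was not settled, so levels are compared between libraries and not between genes. Totals per library were between 35440200 and 43790600 counts in *Tg(cmlc2:tfeb)*, between 36905600 and 45273900 in *mtor xu015/+*, and between 35935600 and 40733200 in WT. *tfeb* was 10.4-fold higher in *Tg(cmlc2:tfeb)* than in WT. *mtor* had 6165, 7294 and 5389 normalised counts in libraries labelled *mtor xu015/+*, against 6601, 3970 and 2522 in WT, so the count of the targeted gene was not lower in them (log2 fold change 0.53, edgeR quasi-likelihood test, Benjamini-Hochberg adjusted p = 0.70). In *Tg(cmlc2:tfeb)*, *mtor* had 1900, 1904 and 1871 normalised counts, below all other libraries. By the same test its log2 fold change there was -1.21 against WT (adjusted p = 0.015). Against the libraries labelled *mtor xu015/+* it was -1.73 (adjusted p = 0.0027). A count over the whole gene does not show whether the transcript is intact. DEGs had to reach both an adjusted p under 0.05 and 1.5-fold in the edgeR quasi-likelihood fit of all 9 libraries.

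In *Tg(cmlc2:tfeb)* ventricles the class I heavy chain gene *mhc1uba* was upregulated 9.70-fold, whereas the immunoproteasome genes *psmb8a* and *psmb9a* were downregulated 10.8-fold and 12.1-fold and the class II gene *mhc2dab* was downregulated 3.72-fold. *tap1* was upregulated 1.68-fold. Thus 5 of the 10 genes were DEGs against WT, 2 higher and 3 lower, where 14.9% of all genes tested were DEGs, 7.41% higher and 7.49% lower. Their libraries did not overlap with WT for 7 of the 10 genes, against 42.0% of all genes. The median log2 fold change of the 10 genes was -0.31, and that of all genes was -6.3e-04. The median size of the change, regardless of direction, was 0.65 on the log2 scale for the 10 genes and 0.28 for all genes. The 10 genes were chosen with earlier results of these data known, so these shares and medians are a description and not a test. The annotated spans of *psmb8a* and *psmb9a* overlap, so their counts may share reads. In bulk tissue, fewer cells of a type and less RNA per cell cannot be told apart. Whether the groups carried different haplotypes of the chromosome 19 region was not tested. The words upregulated and downregulated therefore refer to counts only.

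**Figure D1:**
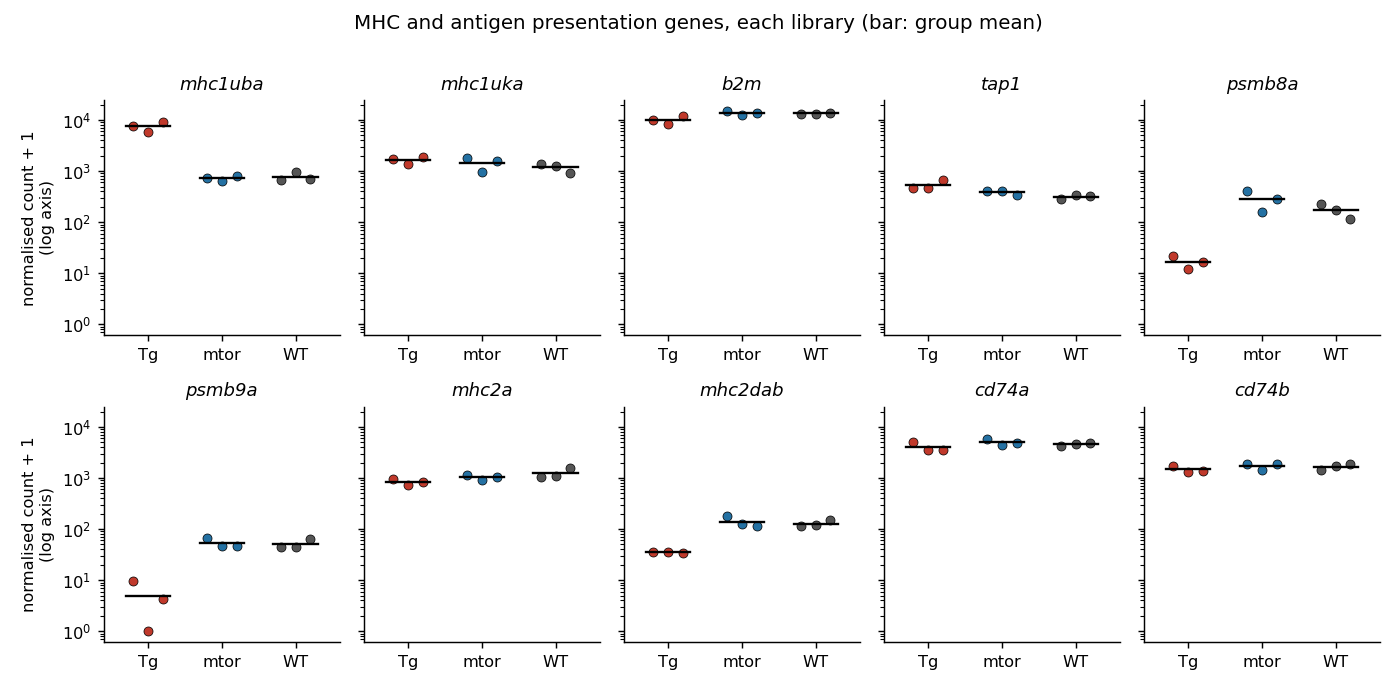
Normalised count plus 1 (log axis) of the 10 genes in each library of *Tg(cmlc2:tfeb)* (Tg), the libraries labelled *mtor xu015/+* (mtor) and WT. Points are libraries and bars are group means. The 3 Tg libraries lie above all others for *mhc1uba* and below all others for *psmb8a*, *psmb9a* and *mhc2dab*.

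Between the libraries labelled *mtor xu015/+* and WT, 0 of the 10 genes were DEGs by edgeR, and 0 had an unadjusted p under 0.05. DESeq2 and limma-voom called 0 as well, and 0.0236% of all genes were DEGs in this comparison. Only *tap1* had libraries that did not overlap, 1 of 10 genes, where 13.2% of all genes did not. The largest estimate was that of *psmb8a* (log2 fold change 0.71 ± 0.34 SE, adjusted p = 0.65). Between *Tg(cmlc2:tfeb)* and the libraries labelled *mtor xu015/+*, 4 of 10 genes were DEGs, *mhc1uba* higher and *psmb8a*, *psmb9a* and *mhc2dab* lower. In that comparison 16.0% of all genes were DEGs, 8.09% higher and 7.95% lower. Libraries did not overlap for 6 of the 10 genes, against 41.8% of all genes.

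**Figure D2:**
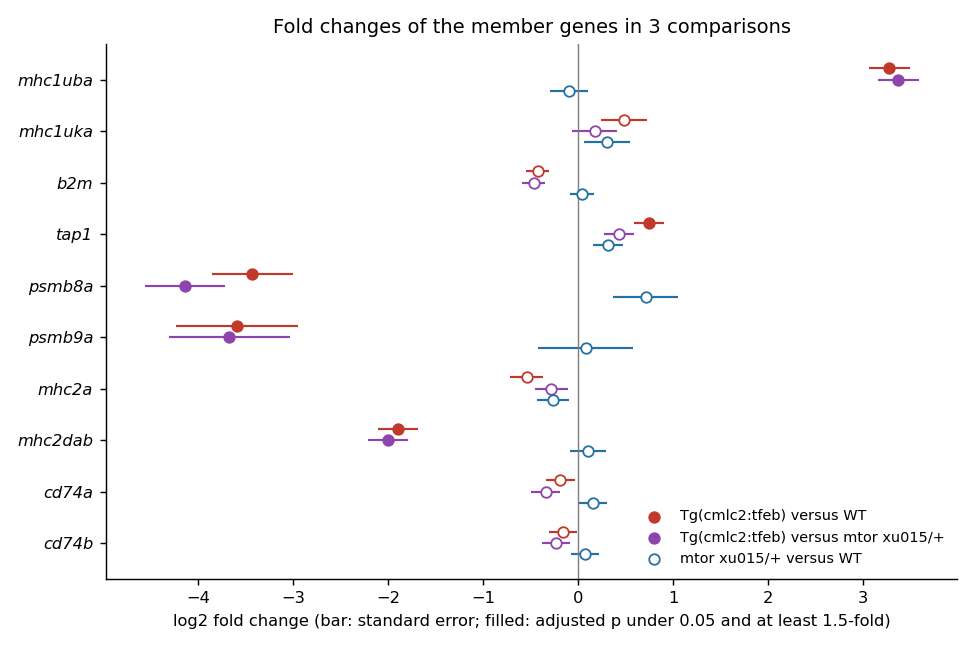
Log2 fold change with its standard error for each of the 10 genes in *Tg(cmlc2:tfeb)* versus WT, *Tg(cmlc2:tfeb)* versus *mtor xu015/+*, and *mtor xu015/+* versus WT. Filled points passed both thresholds. They are 5 genes in the first comparison, 4 in the second and 0 in the third.

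Class I heavy chains differed among themselves. *mhc1uba* (ENSDARG00000075963, chr19:7072854-7101100, GRCz11), a classical class I gene of the U lineage, had 7702, 5744 and 9316 normalised counts in *Tg(cmlc2:tfeb)*, 734, 643 and 821 in libraries labelled *mtor xu015/+*, and 657, 982 and 709 in WT. All 3 *Tg(cmlc2:tfeb)* libraries were far above the 6 others, which overlapped with each other. The log2 fold change against WT was 3.28 ± 0.21 (SE, adjusted p = 3.0e-05). Its neighbour *mhc1uka* (ENSDARG00000092731, chr19:7043634-7051481), of the same lineage, had 1701, 1364 and 1906 normalised counts in *Tg(cmlc2:tfeb)*, 1838, 968 and 1594 in libraries labelled *mtor xu015/+*, and 1406, 1241 and 913 in WT. The groups overlapped, and the log2 fold change against WT was 0.48 ± 0.24 (SE, adjusted p = 0.18). Of the counts of both genes, *mhc1uba* took 81.9%, 80.8% and 83% in *Tg(cmlc2:tfeb)*, against 31.9%, 44.2% and 43.7% in WT. Summed over *mhc1uba* and *mhc1uka*, normalised counts averaged 9244 ± 2062 in *Tg(cmlc2:tfeb)* and 1969 ± 312 in WT (SD, n = 3 each). Class I genes of one lineage are alike in sequence, and how reads shared between them were assigned is not given in the sources used here, so their individual counts are uncertain.

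Of the other class I heavy chain genes, 7 of the Z lineage and 4 of the L lineage were tested. *mhc1zaa*, of the Z lineage, was upregulated in *Tg(cmlc2:tfeb)*, with 1476, 1844 and 2050 normalised counts against 587, 683 and 775 in WT (log2 fold change 1.39, adjusted p = 0.0015). *mhc1lda*, of the L lineage, was downregulated, with 12.0, 2.61 and 3.36 normalised counts in *Tg(cmlc2:tfeb)* and 28.3, 35.6 and 37.1 in WT (log2 fold change -2.44, adjusted p = 0.0079, and -3.45 without *Tg(cmlc2:tfeb)* replicate 1). The other 9 were not DEGs in any comparison.

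*b2m* (ENSDARG00000053136, chr4:12785964-12795489), which encodes the light chain of class I molecules, had 10050, 8239 and 11751 normalised counts in *Tg(cmlc2:tfeb)*, 15008, 12590 and 13980 in libraries labelled *mtor xu015/+*, and 13073, 13320 and 13969 in WT. All *Tg(cmlc2:tfeb)* libraries were lower than all others. The log2 fold change against WT was -0.43 ± 0.12 (SE, adjusted p = 0.037), which is under 1.5-fold. With a library left out, it ranged from -0.56 to -0.30, and the adjusted p of *b2m* was not under 0.05 in every other fit. Its paralogue *b2ml* was at -0.32 ± 0.10 (SE, adjusted p = 0.044), also under 1.5-fold.

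Genes of peptide transport and loading went in both directions. *tap1* (ENSDARG00000079766, chr16:48678655-48708045), which encodes a chain of the TAP transporter, had 461, 463 and 667 normalised counts in *Tg(cmlc2:tfeb)*, 417, 414 and 347 in libraries labelled *mtor xu015/+*, and 281, 340 and 325 in WT. Both lines lay above WT without overlap. Only *Tg(cmlc2:tfeb)* passed the thresholds against WT (log2 fold change 0.75 ± 0.16 SE, adjusted p = 0.0094), while the libraries labelled *mtor xu015/+* were at 0.32 ± 0.16 (SE, adjusted p = 0.67). The direct difference between both lines was 0.43 ± 0.16 (SE, adjusted p = 0.072), so a difference between them was not shown. Without *Tg(cmlc2:tfeb)* replicate 3, the *tap1* change against WT was 0.55, under 1.5-fold. The partner chain gene *tap2a* was downregulated, with 81.2, 26.1 and 35.9 normalised counts in *Tg(cmlc2:tfeb)* and 171, 165 and 236 in WT (log2 fold change -1.98, adjusted p = 0.0062, and -2.62 without *Tg(cmlc2:tfeb)* replicate 1). By contrast, *tap2t*, the other *tap2* gene tested, was not a DEG against WT (log2 fold change -0.09, adjusted p = 0.56).

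Of the 14 peptide loading genes tested, *tap1* and *tap2a* included, 4 were upregulated and 1 was downregulated in *Tg(cmlc2:tfeb)* against WT, where 7.41% of all genes were higher and 7.49% lower, with a median log2 fold change of 0.25. The tapasin gene *tapbp.2* (log2 fold change 1.04, adjusted p = 0.0023) and *tapbpl*, which encodes a tapasin-related protein (1.77, adjusted p = 0.0084), were upregulated, as was *erap1b*, of the peptide-trimming aminopeptidases (0.99, adjusted p = 0.034). The call of *erap1b* was lost in 5 of 6 fits that left out a library, with adjusted p from 0.065 to 0.10 in these 5. *tapbp.1*, the other tapasin gene, was at 0.31 (adjusted p = 0.23). *calr*, *canx* and *pdia3*, chaperones of the endoplasmic reticulum, were not DEGs.

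The immunoproteasome genes on chromosome 19 showed the lowest levels in the transgenic line. *psmb8a* (ENSDARG00000001303, chr19:7105838-7144548), an inducible catalytic subunit, had 20.5, 11.3 and 15.7 normalised counts in *Tg(cmlc2:tfeb)*, 404, 160 and 284 in libraries labelled *mtor xu015/+*, and 225, 176 and 116 in WT. No *Tg(cmlc2:tfeb)* library came near the others, and the other groups overlapped with each other. The log2 fold change was -3.43 ± 0.42 against WT (SE, adjusted p = 7.3e-04) and -4.14 ± 0.42 against the libraries labelled *mtor xu015/+* (SE, adjusted p = 2.4e-04).

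*psmb9a* (ENSDARG00000000656, chr19:7120380-7122373), another inducible catalytic subunit, had 8.55, 0 and 3.36 normalised counts in *Tg(cmlc2:tfeb)*, 66.3, 46.4 and 46.0 in libraries labelled *mtor xu015/+*, and 44.0, 43.6 and 62.2 in WT. These are 10, 0 and 3 counts before scaling in *Tg(cmlc2:tfeb)*, so the fold rests on few counts. A read count of 0 would allow up to 3, but whether these values are read counts was not settled. The log2 fold change against WT was -3.59 ± 0.64 (SE, adjusted p = 0.0044). It was -4.94 without *Tg(cmlc2:tfeb)* replicate 1 and -2.99 without *Tg(cmlc2:tfeb)* replicate 2, and it was called in both. Against the libraries labelled *mtor xu015/+* it was -3.67 ± 0.64 (SE, adjusted p = 0.0034), -5.02 without *Tg(cmlc2:tfeb)* replicate 1 and -3.07 without *Tg(cmlc2:tfeb)* replicate 2.

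The other proteasome genes of that cluster were also lowest in *Tg(cmlc2:tfeb)*. *psmb12* had 15.4, 0 and 6.72 normalised counts in *Tg(cmlc2:tfeb)* and 100.5, 80.4 and 89.4 in WT. *psmb13a* had 18.0, 0 and 10.1 in *Tg(cmlc2:tfeb)* and 114, 80.4 and 113 in WT. Their log2 fold changes were -3.58 (adjusted p = 0.0056) and -3.44 (adjusted p = 0.0047). Without *Tg(cmlc2:tfeb)* replicate 1 these were -4.84 and -4.46, and without *Tg(cmlc2:tfeb)* replicate 2 they were -2.97 and -2.83. In replicate 2 of *Tg(cmlc2:tfeb)*, *psmb9a*, *psmb12* and *psmb13a* were all at 0, while *psmb8a* had 13 counts. The annotated span of *psmb8a* overlaps *psmb9a*, *psmb12*, *psmb13a* and *tap2a*, so the split of reads among them is uncertain. Summed over *psmb8a*, *psmb9a*, *psmb12* and *psmb13a*, the normalised count was 62.4, 11.3 and 35.9 in *Tg(cmlc2:tfeb)*, 762, 373 and 567 in libraries labelled *mtor xu015/+*, and 484, 380 and 381 in WT. The *Tg(cmlc2:tfeb)* mean of this sum was 0.0881 times that of WT, with no overlap between libraries.

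**Figure D3:**
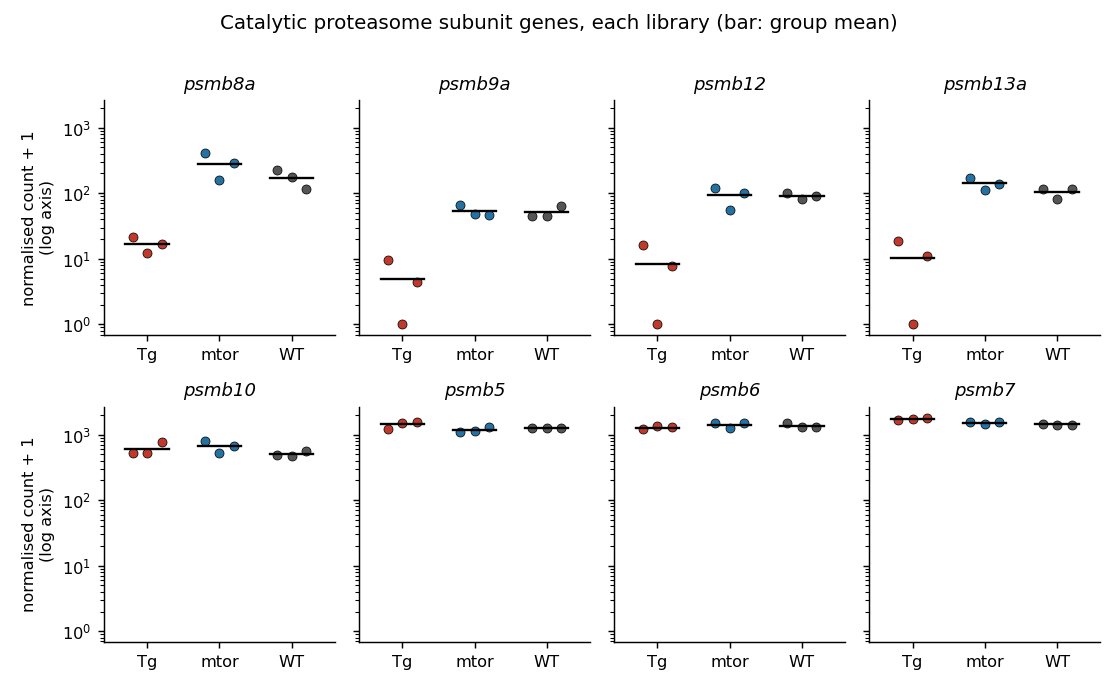
Normalised count plus 1 (log axis) of catalytic proteasome subunit genes in each library of *Tg(cmlc2:tfeb)* (Tg), the libraries labelled *mtor xu015/+* (mtor) and WT, with bars at group means. The upper row holds genes of the chromosome 19 cluster, where all Tg libraries lie below all others. The lower row holds *psmb10* and the constitutive subunits *psmb5*, *psmb6* and *psmb7*, of which 0 were DEGs.

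Most of the other proteasome genes were not DEGs. *psmb10*, an inducible catalytic subunit on chromosome 4, had 525, 528 and 765 normalised counts in *Tg(cmlc2:tfeb)* and 493, 470 and 556 in WT (log2 fold change 0.26, adjusted p = 0.35). The constitutive catalytic subunits *psmb5*, *psmb6* and *psmb7* were not DEGs in any comparison, and their summed normalised count was 4417 ± 285 in *Tg(cmlc2:tfeb)* and 4053 ± 178 in WT (SD, n = 3 each). The genes of the proteasome activator, *psme1*, *psme2* and *psme3*, were at 0.42, 0.15 and 0.06 on the log2 scale against WT and were not DEGs. *psme4a*, of another activator, had 8433, 10637 and 7881 normalised counts in *Tg(cmlc2:tfeb)* and 5020, 6458 and 6986 in WT, without overlap, and its change was under 1.5-fold (log2 fold change 0.55, adjusted p = 0.049). *psme4b* was at -0.09 (adjusted p = 0.45). *psmb11b*, on chromosome 23, a homologue of the thymic subunit gene of mammals, was the exception, with 40.2, 23.5 and 37.0 normalised counts in *Tg(cmlc2:tfeb)*, below all other libraries, against 92.1, 63.1 and 129 in WT (log2 fold change -1.50, adjusted p = 0.0068). In the list of immunoproteasome and activator genes, 0 of 12 tested were upregulated and 5 were downregulated in *Tg(cmlc2:tfeb)* against WT, where 7.49% of all genes were lower, with a median log2 fold change of -0.06. Of these 5, 4 are *psmb8a* and the chromosome 19 genes that overlap its span, so their counts may share reads.

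Class II genes were mixed. *mhc2a* (ENSDARG00000031745, chr8:36472444-36475328), an alpha chain gene, had 969, 730 and 850 normalised counts in *Tg(cmlc2:tfeb)*, 1136, 928 and 1034 in libraries labelled *mtor xu015/+*, and 1042, 1090 and 1581 in WT. Its *Tg(cmlc2:tfeb)* libraries were below those of WT but overlapped with those labelled *mtor xu015/+*. The log2 fold change against WT was -0.54 ± 0.17 (SE, adjusted p = 0.048), under 1.5-fold. It passed both thresholds without WT replicate 1 (-0.65) and without *Tg(cmlc2:tfeb)* replicate 1 (-0.65). These were the only 2 of the 14 other fits that called it. With a library left out, the log2 fold change ranged from -0.65 to -0.33, so the size of this change depends on single libraries. *mhc2dab* (ENSDARG00000079105, chr8:36466771-36469117), a beta chain gene by name, had 35.1, 34.8 and 32.5 normalised counts in *Tg(cmlc2:tfeb)*, 176, 123 and 115 in libraries labelled *mtor xu015/+*, and 116, 117 and 149 in WT. The *Tg(cmlc2:tfeb)* libraries were within 1.08-fold of each other and all below the rest. The log2 fold change was -1.90 ± 0.21 against WT (SE, adjusted p = 4.2e-04) and -2.00 ± 0.21 against the libraries labelled *mtor xu015/+* (SE, adjusted p = 2.7e-04).

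Of the other class II chain genes, *mhc2b* varied most within WT and within libraries labelled *mtor xu015/+*, with 808, 611 and 736 normalised counts in *Tg(cmlc2:tfeb)*, 337, 250 and 66.7 in libraries labelled *mtor xu015/+*, and 124, 351 and 425 in WT. The highest and lowest libraries differed by 5.06-fold in libraries labelled *mtor xu015/+* and by 3.44-fold in WT, where the median over all genes tested was 1.28 and 1.25. *mhc2b* was higher in *Tg(cmlc2:tfeb)* than in libraries labelled *mtor xu015/+* (log2 fold change 1.73, adjusted p = 0.042), and against WT it was at 1.26 (adjusted p = 0.12). *mhc2bl* was at -0.74 against WT (adjusted p = 0.15). In all, 0 of 4 class II chain genes tested were upregulated and 1 was downregulated in *Tg(cmlc2:tfeb)* against WT, where 7.41% of all genes were higher and 7.49% lower.

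The invariant chain genes differed less. *cd74a* (ENSDARG00000009087, chr14:3038473-3052361) had 5018, 3512 and 3522 normalised counts in *Tg(cmlc2:tfeb)*, 5878, 4452 and 4912 in libraries labelled *mtor xu015/+*, and 4269, 4687 and 4755 in WT. *cd74b* (ENSDARG00000036628, chr21:33459524-33463894) had 1753, 1312 and 1400 in *Tg(cmlc2:tfeb)*, 1884, 1458 and 1907 in libraries labelled *mtor xu015/+*, and 1423, 1719 and 1849 in WT. All groups overlapped for both genes. The log2 fold changes of *Tg(cmlc2:tfeb)* against WT were -0.19 ± 0.15 for *cd74a* (SE, adjusted p = 0.42) and -0.16 ± 0.15 for *cd74b* (SE, adjusted p = 0.48). Of the 12 genes tested for the invariant chain and class II processing, *cd74a* and *cd74b* included, 0 were DEGs against WT in either line. Of all genes, 14.9% were DEGs against WT in *Tg(cmlc2:tfeb)* and 0.0236% in libraries labelled *mtor xu015/+*. The cathepsin L gene *ctsla* was lower in *Tg(cmlc2:tfeb)* than in libraries labelled *mtor xu015/+* (log2 fold change -0.60, adjusted p = 0.0062).

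**Figure D4:**
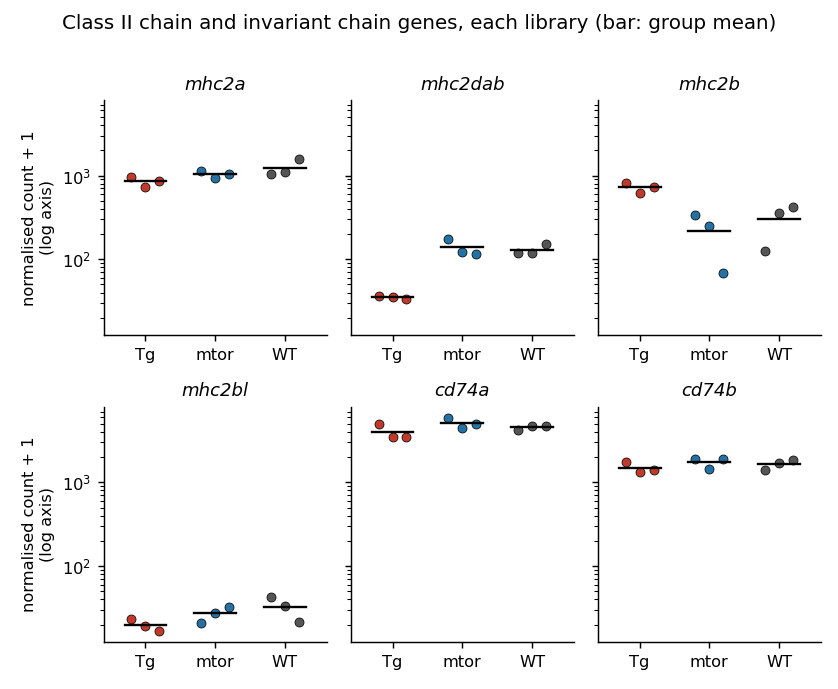
Normalised count plus 1 (log axis) of class II chain genes and invariant chain genes in each library of *Tg(cmlc2:tfeb)* (Tg), the libraries labelled *mtor xu015/+* (mtor) and WT, with bars at group means. *mhc2dab* is low and even in the 3 Tg libraries, at 32.5 to 35.1 normalised counts, *mhc2b* spreads widely in the other groups, and *cd74a* and *cd74b* overlap in all groups.

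The ratio of the highest to the lowest of the 9 libraries set 4 of the 10 genes apart. It was 14.5 for *mhc1uba*, 35.7 for *psmb8a*, at least 19.2 for *psmb9a* (with the lowest library set to 3 counts) and 5.41 for *mhc2dab*. Among genes with at least the same mean count, 0.802%, 0.563%, 2.22% and 3.60% had a ratio as large. For the other 6 genes the ratio was between 1.45 (*cd74b*) and 2.38 (*tap1*). The large ratios lay between genotypes, as within *Tg(cmlc2:tfeb)* the ratio was 1.62 for *mhc1uba*, 1.81 for *psmb8a*, at least 2.54 for *psmb9a* and 1.08 for *mhc2dab*. The widest ratio of these genes within another genotype was that of *psmb8a* in libraries labelled *mtor xu015/+* (2.53). *psmb9a* was at or under 3 counts in 2 of 9 libraries, both of *Tg(cmlc2:tfeb)*, and the other 9 of the 10 genes were above 3 counts in every library.

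The neighbours of these genes were examined in the same fit. On chromosome 19, in a window that spanned the 4 genes there and 250000 bp at either side (chr19:6793634-7394548), 31 genes were listed and 27 were tested. Of these, 10 (37.0%) were DEGs in *Tg(cmlc2:tfeb)* against WT, 3 higher and 7 lower, where 14.9% of all genes were, and 3 of the 10 are members of the list described here. The window was drawn around these members. Of the genes lower, *psmb9a*, *psmb12*, *psmb13a* and *tap2a* overlap the span of *psmb8a* and may share reads, so they are not separate counts. Against the libraries labelled *mtor xu015/+*, 9 of 27 were DEGs, where 16.0% of all genes were. Between these libraries and WT 0 of 27 were, where 0.0236% of all genes were. Those higher were *kifc1*, *tapbp.2* and *mhc1uba*. *kifc1*, which encodes a kinesin of the mitotic spindle, had 215, 354 and 177 normalised counts in *Tg(cmlc2:tfeb)* and 19.9, 27.6 and 31.6 in WT (log2 fold change 3.24, adjusted p = 2.3e-04).

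Those lower lay next to each other, from *psmb8a* to *hsd17b8*. Beyond the proteasome genes and *tap2a*, they were *brd2a*, which encodes a bromodomain protein (log2 fold change -0.66, adjusted p = 0.0033), and *hsd17b8*, a dehydrogenase gene (-0.94, adjusted p = 7.9e-04). *hsd17b8* had 274, 246 and 286 normalised counts in *Tg(cmlc2:tfeb)*, against 551, 436 and 554 in WT. The genes tested farther out on this side, from *col11a2* to *oxr1b*, were not DEGs. The median log2 fold change of the window was -0.02 against WT.

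**Figure D5:**
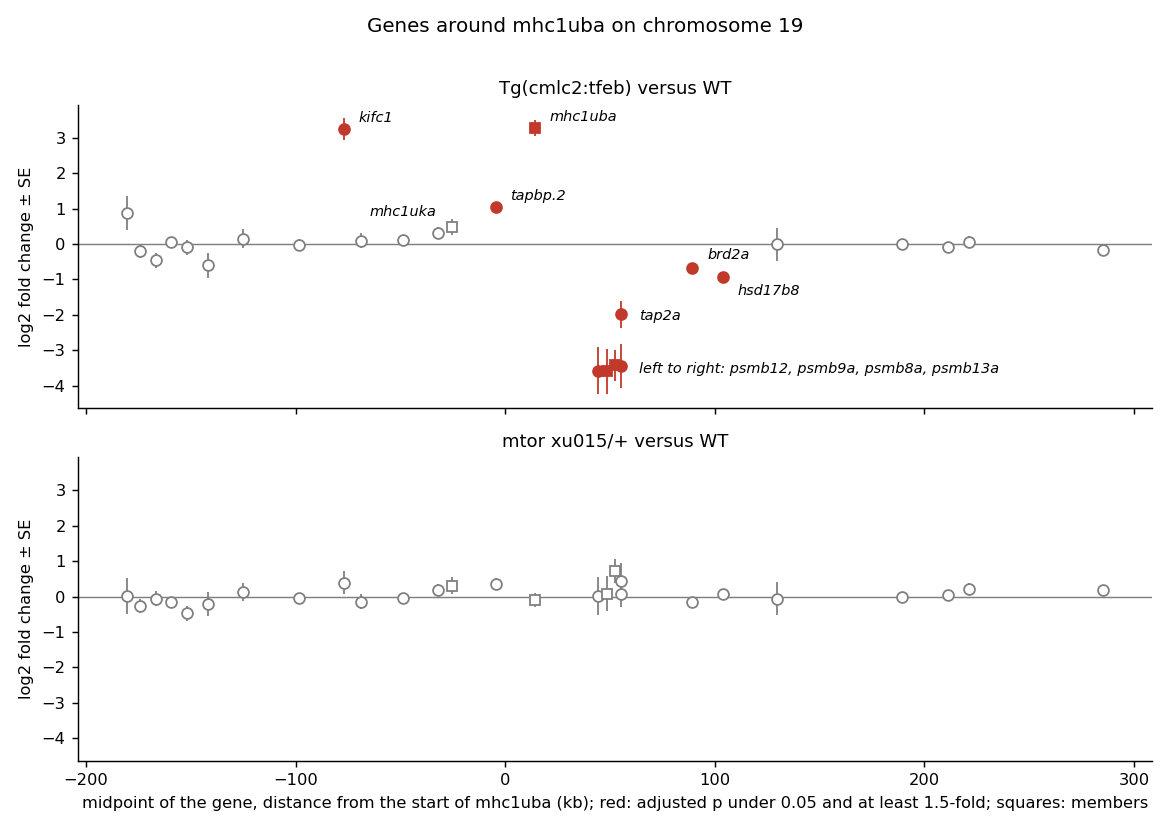
Log2 fold change with its standard error of the 27 genes tested around *mhc1uba*, by the distance of each gene's midpoint from the start of *mhc1uba* in kb. The upper panel shows *Tg(cmlc2:tfeb)* versus WT and the lower panel *mtor xu015/+* versus WT. In the upper panel the 10 red genes passed both thresholds, 3 above and 7 below 0, and the lower panel has 0.

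On chromosome 8, a window of the same extension around *mhc2dab* and *mhc2a* (chr8:36216771-36725328), chosen after the values were seen, held 15 genes tested. Of these, 3 (20%) were DEGs in *Tg(cmlc2:tfeb)* against WT, near the 14.9% of all genes, 2 higher and 1 lower (*mhc2dab*). The higher were ENSDARG00000103716 and *pold2*. ENSDARG00000103716 (chr8:36283548-36287046) lies within the annotated span of *mhc2b* (chr8:36268747-36292840), so their reads may be shared. ENSDARG00000103716 had 203, 143 and 139 normalised counts in *Tg(cmlc2:tfeb)* and 13.6, 44.8 and 73.1 in WT (log2 fold change 1.89, adjusted p = 0.040). *pold2*, which encodes a subunit of a DNA polymerase, was at 0.59 (adjusted p = 0.0096).

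Genes whose levels over the 9 libraries were most like those of the 4 genes with large ratios were sought among all genes tested. Likeness was the root mean square difference of centred log2 CPM, with a prior count of 2. The prior count shrinks differences of genes near 0 counts, so these can rank as more alike than their fold changes are. Since the levels of the 4 genes follow the genotype, the likeness is a description. For *mhc1uba* the most alike were ENSDARG00000093345 on chromosome 22 (0.27), the reductase gene *ptgr1* (0.28) and the opsin gene *opn3* (0.28). ENSDARG00000093345 had 27, 16 and 13 counts in *Tg(cmlc2:tfeb)* and was at 0 in the 6 other libraries. Its log2 fold change against WT was 7.12, where that of *mhc1uba* was 3.28. For *psmb8a* they were *b3gnt3.1*, the small heat shock protein gene *cryaba* and *zmp:0000000652* (0.37 to 0.38), and for *mhc2dab* *GRIN2B*, *trpm1a* and *si:dkey-253d23.8* (0.20 to 0.21). For *psmb9a* they were 2 genes without a name or a chromosome in the table (ENSDARG00000114137 at 0.29 and ENSDARG00000111007 at 0.34) and *psmb12* (0.36). ENSDARG00000114137 had 7.69, 0 and 3.36 normalised counts in *Tg(cmlc2:tfeb)* and 38.7, 45.9 and 37.1 in WT.

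The genes nearest to the mirror image were *si:ch211-147g22.4*, *st6galnac5b* and an unnamed gene for *mhc1uba*, and the cyclin gene *ccna2*, *CR407701.1* and *kcnab2a* for *mhc2dab*. For *psmb8a* they were the DNA replication genes *mcm4* and *dscc1* and the immune receptor gene *nitr1b*, and for *psmb9a* *si:dkey-148h10.5* and the cell division genes *anln* and *kif11*. *ccna2* had 1662, 1959 and 1625 normalised counts in *Tg(cmlc2:tfeb)* and 483, 431 and 432 in WT, with a root mean square difference of 0.15 from the mirror image of *mhc2dab*.

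Regulators of MHC genes were examined next. Of the 16 transactivation genes tested, 1 was upregulated and 0 were downregulated in *Tg(cmlc2:tfeb)* against WT, where 7.41% of all genes were higher and 7.49% lower. *ciita*, the class II transactivator, was at 0.01 and *nlrc5*, the class I transactivator in mammals, was at -0.06 on the log2 scale. The upregulated gene was *irf1b*, of the interferon regulatory factors, with 556, 737 and 973 normalised counts in *Tg(cmlc2:tfeb)* and 237, 268 and 363 in WT (log2 fold change 1.38, adjusted p = 0.0093). *stat1b*, a transcription factor of interferon signalling, was lower in *Tg(cmlc2:tfeb)* than in libraries labelled *mtor xu015/+* (log2 fold change -1.28, adjusted p = 0.039), and against WT it was at -1.09 (adjusted p = 0.074).

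Of the 11 genes tested on the interferon gamma axis, which includes *irf1b* and *stat1b*, 1 was upregulated and 0 were downregulated in *Tg(cmlc2:tfeb)* against WT. For this list and the next, 7.41% of all genes were higher and 7.49% lower. Among 15 interferon-induced antiviral genes tested, *ifit9* was upregulated (log2 fold change 1.68, adjusted p = 0.033) and *ifi45* (-1.59, adjusted p = 0.0019) and *irf3* (-0.78, adjusted p = 0.0043) were downregulated. *ifit9* had 10.3, 18.3 and 17.9 normalised counts in *Tg(cmlc2:tfeb)* and 4.19, 2.30 and 7.63 in WT, and its call was lost in 4 of 6 fits that left out a library, with adjusted p from 0.087 to 0.11 in these 4. In the libraries labelled *mtor xu015/+*, 0 genes of these lists were DEGs against WT.

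Markers of the cells that present antigen were measured in the same libraries. The summed normalised count of 12 macrophage markers was between 2527 and 2620 in *Tg(cmlc2:tfeb)*, between 2191 and 2683 in libraries labelled *mtor xu015/+*, and between 1964 and 3474 in WT. Of these 12 markers, 0 were upregulated and 2, *marco* and *c1qc*, were downregulated in *Tg(cmlc2:tfeb)* against WT, where 7.41% of all genes were higher and 7.49% lower. Against libraries labelled *mtor xu015/+* 1 was higher and 4 were lower, where 8.09% of all genes were higher and 7.95% lower. *mpeg1.2*, a perforin-like gene of macrophages, had 794, 931 and 1055 normalised counts in *Tg(cmlc2:tfeb)*, 150, 238 and 46.0 in libraries labelled *mtor xu015/+*, and 128, 265 and 555 in WT (log2 fold change 1.55 against WT, adjusted p = 0.071, and 2.68 against libraries labelled *mtor xu015/+*, adjusted p = 0.0096). Without *mpeg1.2*, left out after its values were seen, the sum of the other 11 markers was between 1566 and 1733 in *Tg(cmlc2:tfeb)*, between 1953 and 2533 in libraries labelled *mtor xu015/+*, and between 1836 and 2919 in WT. All *Tg(cmlc2:tfeb)* libraries were then lowest, but the marker was left out because it was higher, so this sum is no support of its own. The median log2 fold change of all 12 markers was -0.33 against WT and -0.36 against libraries labelled *mtor xu015/+*. That of all genes was -6.3e-04 and 0.0048. *spi1a*, *spi1b*, *csf1ra*, *csf1rb*, *mfap4*, *mpeg1.1* and *havcr1* overlapped with WT. *marco*, *c1qa*, *c1qb* and *c1qc* were lower than WT without overlap, and *mpeg1.2* was higher without overlap. The share of these markers that did not overlap was near the 42.0% of all genes. The sum of 10 dendritic cell markers was between 1070 and 1385 in *Tg(cmlc2:tfeb)* and between 919 and 1170 in WT, with 0 of 6 tested called. That of 8 B cell markers was between 120 and 220 in *Tg(cmlc2:tfeb)* and between 170 and 398 in WT, with 0 of 8 called, and that of 7 pan-leukocyte markers was between 2377 and 2675 in *Tg(cmlc2:tfeb)* and between 2244 and 3066 in WT, with 0 of 7 called. The ranges of the dendritic cell, B cell and pan-leukocyte sums overlapped between *Tg(cmlc2:tfeb)* and WT.

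Sums of T and NK cell, erythrocyte, epicardial and fibroblast, and cardiomyocyte markers did not overlap between *Tg(cmlc2:tfeb)* and WT. Those of neutrophil, endothelial and atrial cardiomyocyte markers overlapped. In each list, the count of DEGs against WT is to be set beside 7.41% of all genes higher and 7.49% lower. The neutrophil sum was between 516 and 806 in *Tg(cmlc2:tfeb)* and between 612 and 719 in WT, with 1 of 9 higher and 1 lower. The endothelial sum was between 35153 and 36389 in *Tg(cmlc2:tfeb)* and between 31290 and 35275 in WT, with 0 of 8 called. The sum of 13 T and NK cell markers was between 239 and 280 in *Tg(cmlc2:tfeb)* and between 174 and 206 in WT, with 2 of 7 tested higher and 1 lower. Those higher were *ccl38.6* (82.9, 89.7 and 105 normalised counts against 36.6, 42.5 and 50.2 in WT) and *nkl.4* (34.2, 41.8 and 49.3 against 10.5, 5.74 and 12.0). The T cell gene *cd247* was lower (32.5, 51.4 and 50.4 against 80.6, 76.9 and 72.0), and *lck* and *zap70* overlapped with WT. The sum thus does not show that these markers rose together. That of 8 erythrocyte markers was between 186174 and 241531 in *Tg(cmlc2:tfeb)* and between 142355 and 160962 in WT, with 3 of 8 higher. Among them, *hbba2* and *hbaa2* overlapped with WT (log2 fold changes 0.08 and 0.04). The sum of 8 epicardial and fibroblast markers was between 16982 and 21182 in *Tg(cmlc2:tfeb)* and between 13281 and 13986 in WT, with 2 of 8 higher, while *wt1b* and *pdgfra* overlapped. The sum of 10 cardiomyocyte markers was between 2612330 and 3005800 in *Tg(cmlc2:tfeb)* and between 3315880 and 3466750 in WT, with 1 of 10 lower, while *ryr2b* was above WT without overlap. Against WT, these sums likewise do not show that the markers of a list changed together. Against libraries labelled *mtor xu015/+*, 8 of 8 erythrocyte markers were higher, so in that comparison they did change together. There, 4 of 8 epicardial and fibroblast markers and 2 of 7 T and NK cell markers were higher, with 0 lower in either list. Of the 10 cardiomyocyte markers, 0 were higher and 1 was lower. In that comparison 8.09% of all genes were higher and 7.95% lower. No marker of these lists was at 0 in all libraries. The part of the cell makeup in the changes of the MHC genes was not tested.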

How the data were processed

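Total RNA of 9 ventricle libraries was sequenced as paired-end reads. The authors deposited values per gene, treated here as estimated counts, which were not normalized between libraries. The submitters' processing notes name bcl2fastq 2.17, Trimmomatic 0.36 and STAR 2.5.2b with build GRCz11, whereas the methods of the study name TopHat and Cufflinks. The tool that made the table is not given in the sources used here, and its column names carry a suffix for scaled TPM, so whether the values are read counts or rescaled abundances was not settled. Low values (0.5 to 5.5) were within 0.1 of a whole number in 58.5% of cases.

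Estimated counts were rounded, filtered with filterByExpr, scaled with TMM (factors from 0.946 to 1.08) and fitted over all 9 libraries with the quasi-likelihood test of edgeR 4.0.16 in R 4.3.3. Two-sided p-values were adjusted over 21216 genes (Benjamini-Hochberg). Cuffdiff, the test of the study, needs alignments and was not used. Normalised counts are rounded counts over the effective (TMM) library size, times the mean effective size. DEGs needed an adjusted p under 0.05 and at least 1.5-fold. The fit was tested on simulated data.

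Groups were taken from the sample labels. Nothing in the labels ties the replicate numbers of different groups, so no pairing was used. Deviations of same-numbered libraries correlated with r from -0.024 to 0.089, and those of other pairs with r from -0.12 to 0.054. The members, lists of genes and windows were chosen with earlier results of these data known. All 10 members were named, and for each list up to 5 DEGs by smallest p, for the chromosome 19 window up to 8, and for members with a ratio of at least 4 the 3 genes most like them and the 3 nearest to the mirror image. A few genes outside this rule (*b2ml*, *tap2t*, *tapbp.1*, *calr*, *canx*, *pdia3*, *psmb10*, *psmb5*, *psmb6*, *psmb7*, *psme1*, *psme2*, *psme3*, *psme4a*, *psme4b*, *mhc2bl*, *ciita*, *nlrc5*, *col11a2*, *oxr1b*, some marker genes and the chromosome 8 neighbours) were chosen after their values were seen. The alternatives were DESeq2 1.42.0, voom of limma 3.58.1, RLE and upper-quartile factors, other filters, other fold thresholds, a fit of the groups compared, a replicate block, and each library left out. Sequences of genes were not used here.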

Additional observations from a re-analysis of the deposited data

Results flagged for a closer look

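The direct test between both lines was edgeR on *Tg(cmlc2:tfeb)* versus *mtor xu015/+* as labelled, with Benjamini-Hochberg adjustment. It gave an adjusted p under 0.05 for the 20 genes below. Screened were the MHC genes and the DEGs named by rule from the pathway lists and the chromosome 19 window. The named DEGs were picked by their calls, in part in this same comparison, so the 20 do not describe the lists or the window. Other genes of the lists and the window were not screened and may also pass. Marker genes, the manipulated genes, the genes chosen for their likeness and those near *mhc2dab* on chromosome 8 were not screened here. Since both lines were set against the same WT libraries, this contrast is the difference between their changes. Among the MHC genes, the log2 fold change was 3.37 for *mhc1uba*, -2.00 for *mhc2dab*, -0.47 for *b2m*, -4.14 for *psmb8a* and -3.67 for *psmb9a*. All 3 *Tg(cmlc2:tfeb)* libraries were on one side of all 3 libraries labelled *mtor xu015/+* for each of these 5 genes. These 5 were picked by their adjusted p in this same contrast, so this is no further support. The adjusted p of *b2m* in this contrast was not under 0.05 in every other fit. Of all genes, 41.8% did not overlap in this comparison. Among other class I and loading genes it was 1.25 for *mhc1zaa*, -2.01 for *mhc1lda*, 0.67 for *tapbp.2* and -2.05 for *tap2a*. Among proteasome genes it was -3.89 for *psmb13a*, -3.60 for *psmb12* and -1.22 for *psmb11b*.

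For class II genes it was 1.73 for *mhc2b* and -0.60 for *ctsla*. For interferon genes it was -1.28 for *stat1b*, -1.21 for *ifi45* and -0.72 for *irf3*. For chromosome 19 neighbours it was 2.84 for *kifc1*, -1.01 for *hsd17b8* and -0.52 for *brd2a*. With 3 libraries a group, single libraries were not tested for standing apart.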

How the results depend on the processing

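The number of the 10 genes called stayed within 1.5 times of the main count under every alternative run. In *Tg(cmlc2:tfeb)* against WT, 5 genes were called, 7 without a fold threshold, 4 at 2-fold or more, and 4 to 6 with a library left out. Of the 21216 genes tested, 3161 were called, 4671 without a fold threshold and 1973 at 2-fold or more. With a library left out, 2348 to 2957 of all genes were called, where 21391 to 21781 were tested. *mhc1uba*, *psmb8a*, *psmb9a* and *mhc2dab* were called under all 14 other fits in both comparisons of *Tg(cmlc2:tfeb)*. In *Tg(cmlc2:tfeb)* against *mtor xu015/+*, 4 genes were called, and 4 to 5 with a library left out. Of all genes, 3404 were called there, and 2688 to 3199 with a library left out. In *mtor xu015/+* against WT, 0 were called throughout, where 0 to 68 of all genes were called. With the replicate block the counts in *Tg(cmlc2:tfeb)* against WT, *mtor xu015/+* against WT and *Tg(cmlc2:tfeb)* against *mtor xu015/+* were 5, 0 and 4. Over all 21216 genes they were 2954, 0 and 3208. The block changed none of the 49 calls refitted with it. Of the libraries, 5 of 9 correlated best with their own number.

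Of 686 refitted log2 fold changes (the 10 genes in each comparison, and other genes of the pathway lists and chromosome 19 in *Tg(cmlc2:tfeb)* against WT), 659 kept direction and call, 15 lost the call, 4 gained it and 8 changed sign, none of them called. All sign changes came from leaving out a library. In *mtor xu015/+* against WT, such fits gave log2 fold changes from -0.21 to 0.10 for *mhc1uba* (positive without WT replicate 2), from -0.10 to 0.24 for *mhc2dab* and from -0.017 to 0.11 for *b2m* (both negative without *mtor xu015/+* replicate 1), from -0.028 to 0.19 for *cd74b* (negative without WT replicate 1), and from -0.11 to 0.27 for *psmb9a* (negative without WT replicate 1, WT replicate 2 or *mtor xu015/+* replicate 1). In *Tg(cmlc2:tfeb)* against *mtor xu015/+*, *mhc1uka* ranged from -0.051 to 0.37 (negative without *mtor xu015/+* replicate 2). The lost calls were those of *tap1* (1 fit), *erap1b* (7) and *ifit9* (7). With voom, *psmb9a* was at -4.35 against WT. The causes were not tested. Depth limits *psmb8a*, *psmb9a*, *psmb12*, *psmb13a*, *mhc1lda* and *ifit9*, which had under 25 counts in each *Tg(cmlc2:tfeb)* library.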
